A study of Canis lupus familiaris with 40 samples.

Results

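The subject of this section was a set of 34 canine genes that were at least 20-fold lower in the neutrophils than in the monocytes of healthy dogs and were present in PMN-MDSC at 0.25 or more of the monocyte level. The set was selected on the deposited CPM values (the reads of a gene over 1000000 reads assigned to genes) among 24580 annotated genes. A gene qualified if it stayed under 20000 CPM in every library, had a mean of at least 20 CPM in H Mono, had a mean in H Mono at least 20 times that in H PMN, and had a median in PMN-MDSC of at least 0.25 of the H Mono mean. The first 3 conditions left 580 monocyte-restricted genes, of which 34 met the last and 546 did not. All values of H PMN, H Mono and PMN-MDSC therefore describe how the genes were chosen and test nothing about them. C PMN, C Mono and M-MDSC took no part in the choice beyond the limit of 20000 CPM.

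Monocytes and neutrophils descend from shared myeloid precursors in the bone marrow and differ in what they keep transcribing: monocytes circulate as cells that can still become macrophages or dendritic cells, whereas neutrophils leave the marrow with granules already filled and with little further transcription. Myeloid-derived suppressor cells (MDSC) are immature or abnormally activated myeloid cells that expand in cancer and restrain T cells. The polymorphonuclear kind (PMN-MDSC) shares surface features with neutrophils but floats with the mononuclear cells on a density gradient, and the monocytic kind (M-MDSC) resembles monocytes.

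Cells were sorted from the peripheral blood of dogs. H PMN (5 libraries) and H Mono (3 libraries) were neutrophils and monocytes of healthy dogs, and C PMN (10 libraries), C Mono (8 libraries), PMN-MDSC (9 libraries) and M-MDSC (5 libraries) came from dogs with cancer. Monocytes were gated as MHC II+ CD14+ cells and both MDSC types as MHC II- cells of the mononuclear layer, CADO48A+ for PMN-MDSC and CD14+ for M-MDSC; CADO48A is an antibody that binds canine granulocytes. PMN were taken from the dense pellet under the gradient, so the cell layer differs together with the cell type between PMN-MDSC and PMN, and these cannot be told apart. Suppression of T cells had been shown for the CADO48A+ cells and not for the cells labelled M-MDSC. The files hold more PMN-MDSC and C PMN libraries than the study's description counts dogs for these types, and no label says whether a dog gave more than a single library or a library was set aside. All were used here. The labels give neither the dog of a library nor the dogs' age, breed or tumour, so p-values measure the spread between these libraries, and libraries of different sample types can come from one dog. Genes are given by their Ensembl identifiers, because no identifier could be paired with a symbol here; the function of a gene is therefore not stated.

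The 40 libraries held 4229857 to 60473238 reads assigned to genes and belonged to 2 library series, GAR4079 and PAT4694, as the prefixes of their titles give them. All 8 healthy libraries belonged to series GAR4079. A pair of libraries was shallow: C PMN replicate 7 held 4229857 counts and had 3470 genes with 10 or more counts, and PMN-MDSC replicate 9 held 6299310 counts and had 3959 such genes, against 9480 to 12466 in the other 38. Scaling by the trimmed mean of M-values (TMM), which corrects library sizes for a few genes taking up many reads, gave these libraries factors of 0.145 and 0.145, against 0.641 to 1.60 in the others. In addition, PMN-MDSC replicates 3, 8 and 9 stood apart from the other 6 libraries of their type on the chosen genes, as described below.

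Of the 580 monocyte-restricted genes, most were at a small fraction of their H Mono level in PMN-MDSC. The median of the PMN-MDSC to H Mono ratio was 3.42% over all 580, 42.1% over the 34 chosen genes and 2.91% over the other 546. Ratios under 0.01 were found for 164 genes, from 0.01 to 0.05 for 164, from 0.05 to 0.1 for 103, and from 0.1 to 0.25 for 115. Above the threshold lay 21 genes up to 0.5, 8 from 0.5 to 1, and 5 over 1. The threshold cut through a continuous range: the genes just inside it were ENSCAFG00000009963 at 0.255, ENSCAFG00000008273 at 0.257 and ENSCAFG00000013720 at 0.260, and those just under it were ENSCAFG00000015967 at 0.243, ENSCAFG00000009237 at 0.239 and ENSCAFG00000017691 at 0.239. Applied to TMM-scaled CPM, the same rule found 32 genes, of which 15 were among the 34, and applied to TPM (transcripts scaled by length and depth) it found 27, of which 18 were. The upper end was sparse, with a single gene, ENSCAFG00000028980, at 16.5 times its H Mono level.

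**Figure D1:**
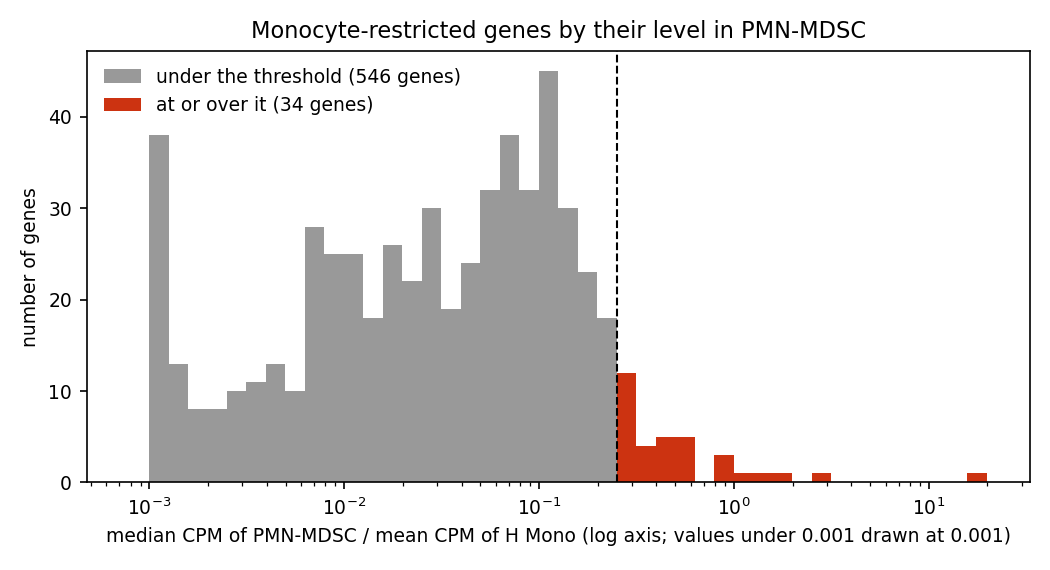
Number of monocyte-restricted genes (vertical axis) by the ratio of their median CPM in PMN-MDSC to their mean CPM in H Mono (horizontal log axis), with the 34 chosen genes in red and the 546 others in grey. The dashed line is the ratio of 0.25 used for the choice; the bars run across it without a gap, and 1 gene lies far to the right at 16.5.

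Expressed as a percent of the H Mono mean, the median over the 34 genes was 1.79, 1.87, 1.88, 2.75 and 3.97% in the 5 H PMN libraries. In C PMN it ran from 1.52% to 5.65% with a median of 2.92% over 10 libraries. The 9 PMN-MDSC libraries stood at 47.6, 63.7, 4.44, 43.8, 59.0, 70.8, 30.3, 7.57 and 3.71%, in the order of replicates 1 to 9. Replicates 3 and 9 thus lay inside the range of C PMN and replicate 8 just above it, while the other 6 lay at least 5 times above the highest C PMN library. The label of the set, a gain in PMN-MDSC, accordingly described 6 of the 9 libraries. In M-MDSC the 5 libraries stood at 91.6, 91.0, 65.5, 75.8 and 74.1%, and C Mono ran from 86.8% to 110.5% with a median of 96.5% over 8 libraries. Fewer cells with the transcripts and less RNA per cell cannot be told apart in such sorted bulk samples.

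The same libraries were described by 2 other lists. The 546 monocyte-restricted genes that were not chosen had medians of 0.536% to 6.05% of H Mono in PMN-MDSC, 0.336% to 2.41% in C PMN, 60.0% to 82.6% in M-MDSC and 80.0% to 105.2% in C Mono. A mirrored list of 115 neutrophil-restricted genes, at least 20 CPM in H PMN and at least 20 times their H Mono mean, had medians of 43.0, 40.8, 86.9, 35.6, 27.6, 22.1, 43.1, 74.2 and 0.771% of H PMN in PMN-MDSC replicates 1 to 9. Replicates 3 and 8, low in the 34 genes, were therefore the highest of the 9 libraries in the neutrophil list, and the shallow replicate 9 was low in both. In C PMN the neutrophil list stood at 63.5% to 89.1% apart from the shallow replicate 7 at 5.80%. The part that cell composition or depth has in the level of the 34 genes was not tested.

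**Figure D2:**
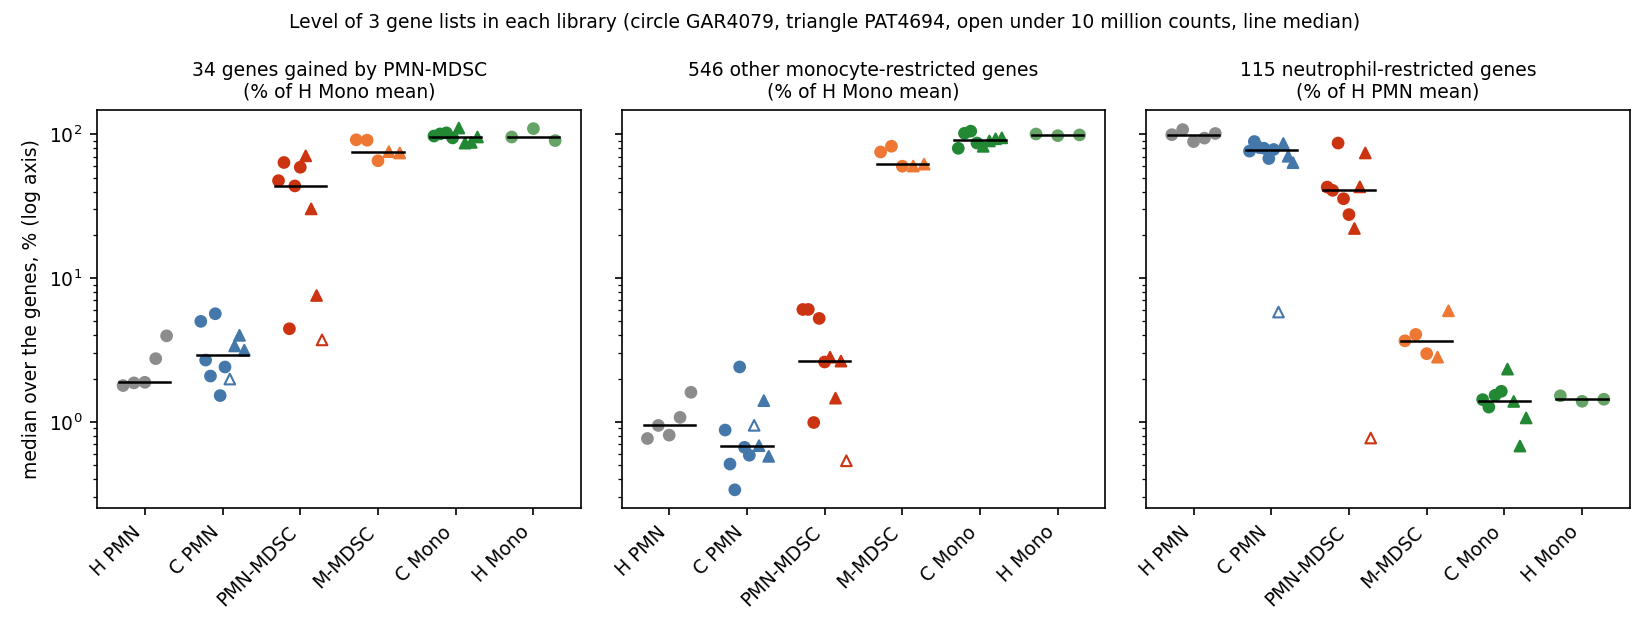
Median level in each library (points) of the 34 chosen genes, the 546 other monocyte-restricted genes and the 115 neutrophil-restricted genes, in percent of the H Mono or H PMN mean on a log axis, by sample type; circles are series GAR4079, triangles PAT4694, open symbols the libraries under 10000000 counts and lines the medians. In the left panel 6 PMN-MDSC libraries lie between 30.3% and 70.8%, and 3 lie at 3.71%, 4.44% and 7.57%, next to the C PMN libraries.

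Gene by gene, the PMN-MDSC libraries were less clearly split. The number of the 34 genes at 0.25 or more of H Mono was 31, 34, 2, 32, 33, 32, 20, 2 and 14 in replicates 1 to 9, against at most 3 in any C PMN library. Replicates 3 and 8 were thus within the C PMN range by this count, whereas the shallow replicate 9, low by its median, had 14 genes at that level, 4 of them at or above H Mono. A single gene, ENSCAFG00000028980, reached that level in all 9 libraries, 9 genes did so in 7, 8 in 6, and 16 in 5. None of the 34 was above the highest C PMN library in every PMN-MDSC library: 6 genes were so in 8 libraries, 11 in 7, 13 in 6, 3 in 5, and ENSCAFG00000014033 in 1. Since the genes were chosen for a high median in PMN-MDSC, these counts only describe the choice. No share over all genes stands beside them. In C PMN itself, 28 of the 34 had no library at 0.25 of H Mono or more. The rank correlation of a gene with the median of the others over the 9 PMN-MDSC libraries ranged from 0.10 for ENSCAFG00000014205 to 0.98 for ENSCAFG00000012195 and ENSCAFG00000032146, with a median of 0.78; these points share library depth and the low replicates, so the values are a description.

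**Figure D3:**
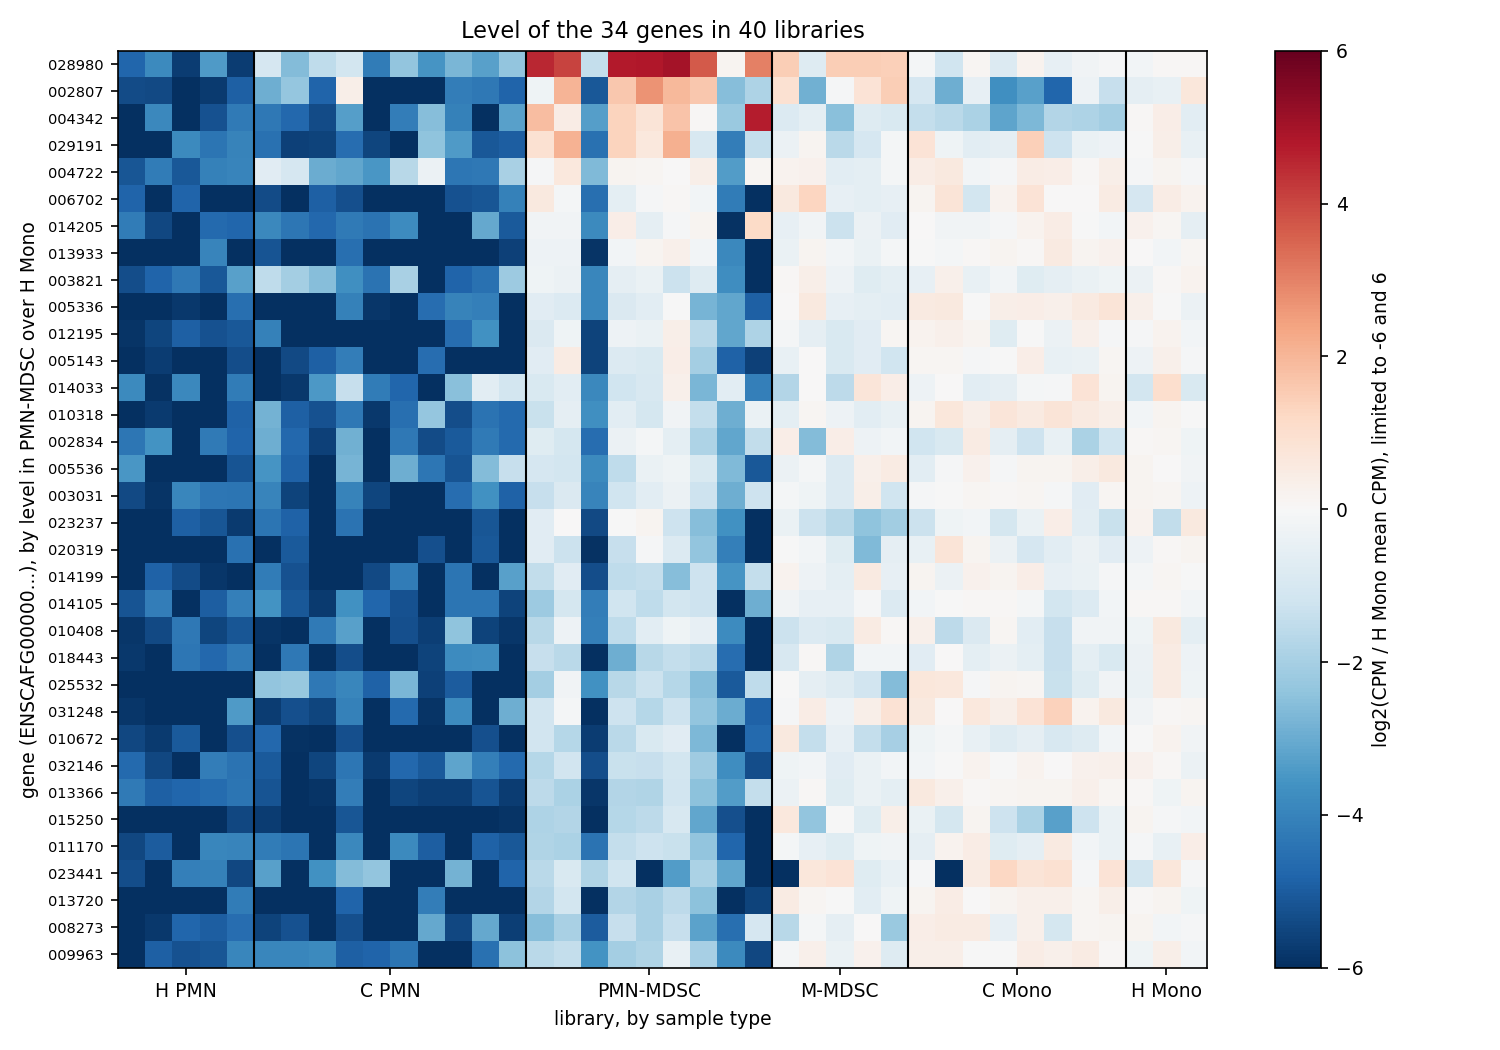
Level of each of the 34 genes (rows, ordered by the PMN-MDSC to H Mono ratio) in each of the 40 libraries (columns, grouped by sample type), as log2 of CPM over the H Mono mean, from blue (lower) through white (equal) to red (higher). PMN-MDSC replicate 3 and much of replicate 9 are about as blue as the PMN columns. Replicate 8, with a median of 7.57% of H Mono, is nearly so. ENSCAFG00000028980 in the top row is red in most PMN-MDSC columns.

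ENSCAFG00000013933 took 59.2% to 76.4% of the reads of the set in each H Mono, C Mono and M-MDSC library and in 6 PMN-MDSC libraries, and 8.0% to 39.4% in the C PMN libraries. In PMN-MDSC replicates 3, 8 and 9 the share was 37.4%, 54.5% and 2.63%, and in the H PMN libraries it was 19.1% to 80.3%. It was also the highest per transcript length, at 1458 ± 197 TPM (SD, n = 3) in H Mono, against 627 ± 120 for the next, ENSCAFG00000013366; the median of the 34 was 47.5 TPM. In CPM, ENSCAFG00000013933 had 20.6, 25.03, 29.2, 41.4 and 282 in H PMN, and 15.1 to 188 with a median of 53.2 in C PMN. Its PMN-MDSC libraries had 3508, 3592, 75.2, 3939, 4928, 5389, 3927, 297 and 42.4 CPM in the order of replicates 1 to 9. The M-MDSC libraries had 3340, 3348, 3957, 4055 and 4911 CPM, the C Mono libraries 3995 to 6273 with a median of 4742, and the H Mono libraries 3884, 4524 and 4746. The 6 higher PMN-MDSC libraries thus lay above the lowest M-MDSC library, replicates 3 and 9 overlapped with PMN, and replicate 8 lay above every PMN library. This gene was singled out after its values were seen.

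For 5 genes the median of PMN-MDSC exceeded the H Mono mean, all of them likewise singled out by their values. ENSCAFG00000028980 had 0.586, 0.601, 1.15, 2.15 and 2.88 CPM in H PMN and 27.1, 32.4 and 32.5 CPM in H Mono. Its PMN-MDSC libraries had 712, 507, 11.4, 825, 849, 973, 398, 33.8 and 253 CPM in the order of replicates 1 to 9, so that 7 of the 9 exceeded every library of all other sample types. ENSCAFG00000002807 had 73.3, 78.7 and 169.7 CPM in H Mono and 3.16 to 694 CPM with a median of 331 in PMN-MDSC. C PMN ranged for this gene from 0 to 134.8 CPM with a median of 4.66; the highest, replicate 4, stood far from the next at 21.3 CPM.

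ENSCAFG00000004342 had 18.1, 29.7 and 36.5 CPM in H Mono and 2.82 to 743 CPM with a median of 48.0 in PMN-MDSC. The highest value was that of the shallow replicate 9, and the next was 101.2 CPM. ENSCAFG00000029191 (28.04, 38.0 and 49.6 CPM in H Mono) had 1.73 to 168 CPM with a median of 59.0 in PMN-MDSC, and ENSCAFG00000004722 (66.9, 67.1 and 80.0 CPM in H Mono) had 6.995 to 111.7 CPM with a median of 76.5. The last also had up to 55.3 CPM in C PMN, with a median of 13.8, and its C PMN mean of 29.1% of H Mono was the highest of the 34.

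The comparison of C Mono with C PMN asked whether the 34 genes also differed between monocytes and neutrophils in dogs with cancer. The choice had used PMN-MDSC of dogs with cancer, and these dogs can have given C PMN or C Mono libraries too. All fits were edgeR quasi-likelihood tests over the genes with enough counts, scaled by TMM, with Benjamini-Hochberg adjustment over all genes tested (false discovery rate, FDR); a gene was called at an FDR of 0.05 or less. All 34 genes could be tested, and 30 were higher in C Mono, against 34.1% of the 11261 genes tested that were called higher; none was lower, against 31.5% of genes called lower. Over the 34, the median log2 fold change was 3.48, against 0.03 over all genes tested and 4.93 over the 544 other monocyte-restricted genes tested, of which 516 were called higher. The libraries of the 2 sample types did not overlap in CPM for 29 of the 34, against 34.5% of the genes tested with C Mono wholly above C PMN.

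The smallest adjusted p-values belonged to ENSCAFG00000013366 and ENSCAFG00000006702. ENSCAFG00000013366 had 200.4 to 281 CPM with a median of 213 in C Mono and 2.49 to 10.8 CPM with a median of 3.81 in C PMN. The log2 fold change was 4.45 (SE 0.36, edgeR adjusted p = 5.23e-09). ENSCAFG00000006702 had 33.9 to 129 CPM with a median of 83.5 in C Mono and 0.314 to 4.45 CPM with a median of 1.83 in C PMN, a log2 fold change of 4.60 (SE 0.41, edgeR adjusted p = 1.66e-08). Neither gene's groups overlapped. For ENSCAFG00000013933 the log2 fold change was 5.09 (SE 0.47, edgeR adjusted p = 2.12e-08).

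The 4 genes not called were ENSCAFG00000028980, ENSCAFG00000004342, ENSCAFG00000002807 and ENSCAFG00000004722, all from the 5 whose PMN-MDSC median exceeded H Mono. The remaining 29 genes were all called, with log2 fold changes from 1.40 to 5.52. ENSCAFG00000028980 had 13.3 to 35.7 CPM in C Mono and 1.65 to 15.3 CPM in C PMN, a log2 fold change of 0.75 (SE 0.38, edgeR adjusted p = 0.0913). ENSCAFG00000004342 had 3.14 to 10.6 CPM with a median of 7.74 in C Mono, under every H Mono library, and 0.183 to 4.73 CPM in C PMN; its log2 fold change was 0.47 (SE 0.71, edgeR adjusted p = 0.574). ENSCAFG00000002807 had 4.02 to 86.0 CPM in C Mono, so that the spread within the sample type was wide, and a log2 fold change of 0.11 (SE 0.91, edgeR adjusted p = 0.924). For ENSCAFG00000004722, with 63.3 to 106.4 CPM in C Mono above every C PMN library, the fitted log2 fold change was 0.07 (SE 0.71, edgeR adjusted p = 0.937), and it became 2.06 when libraries were scaled by their size alone.

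For 3 of the 4 genes the missing calls changed with the library left out, the scaling or the test. With every library kept, scaling by library size alone called ENSCAFG00000028980, ENSCAFG00000004342 and ENSCAFG00000004722, as did voom. Without the shallow C PMN replicate 7, ENSCAFG00000004722 had a log2 fold change of 1.29 (edgeR adjusted p = 0.0229) and ENSCAFG00000004342 one of 1.41 (edgeR adjusted p = 0.0111), both called. Without C PMN replicate 1, ENSCAFG00000028980 had 1.002 (edgeR adjusted p = 0.0205). ENSCAFG00000002807 was called in none of its 29 other settings, with log2 fold changes of -0.38 to 1.96.

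That scaling mattered for the comparison as a whole. By library size alone the median of all genes tested moved from 0.03 to 1.08, the share of calls that were higher in C Mono moved from 51.9% to 79.6%, and 33 of the 34 genes were called, with a median of 4.65. Without the shallow C PMN replicate 7, 32 were called. Within series GAR4079 alone 29 were called, and within PAT4694 alone 25. The interaction of this difference with series (PAT4694 minus GAR4079) was called for 0 of 12586 genes (0%), with 1070 genes, 2 of them in the set, at an unadjusted p under 0.05 in edgeR. Its median over the 34 was -0.78 on the log2 scale, with 10 positive values, against -0.05 over all genes tested, and -0.22, with 16 positive, without the shallow C PMN replicate 7.

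**Figure D4:**
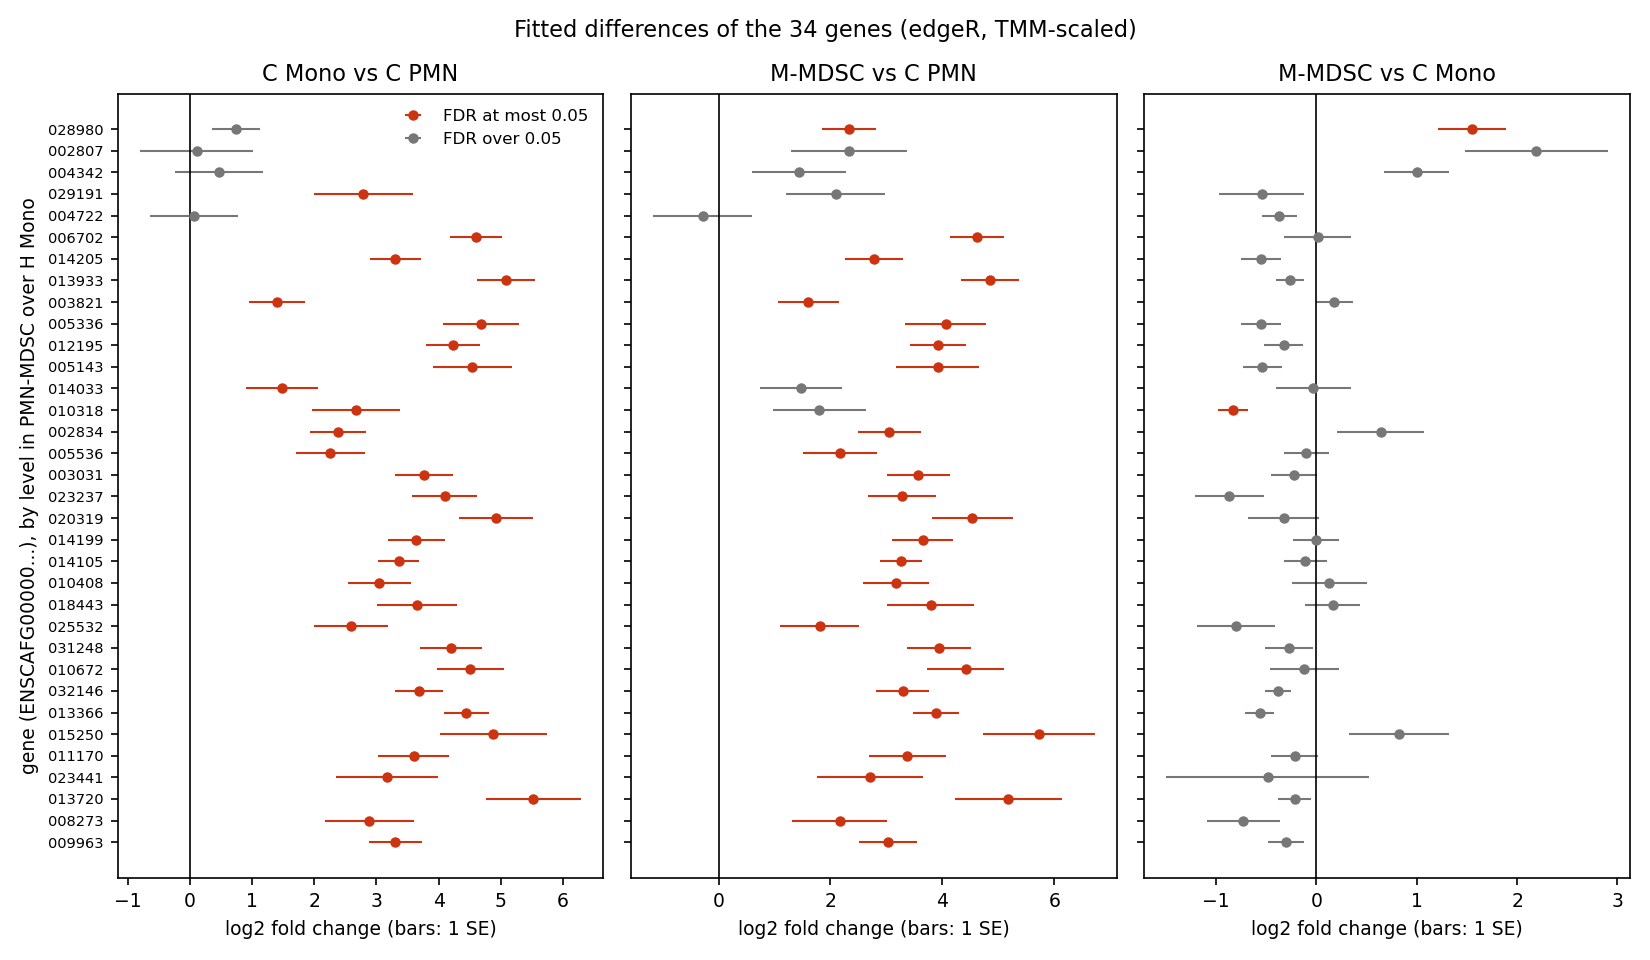
Log2 fold changes of the 34 genes (points, with bars of 1 SE) in 3 comparisons of sample types that took no part in the choice, ordered from top to bottom by the PMN-MDSC to H Mono ratio; red points have an FDR of 0.05 or less. In the left panel the 4 grey points are among the top 5 genes, and in the right panel most points lie within 1 of zero with 1 red point on each side.

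M-MDSC were set against C PMN in the same way; this comparison shares the C PMN libraries with the one above, so the counts are placed side by side only. Of the 34 genes 28 were called higher in M-MDSC, against 24.8% of the 11438 genes tested, and none lower, against 20.9%. The median log2 fold change was 3.27 over the 34 and -0.01 over all genes tested. For 29 of the 34 the 5 M-MDSC libraries lay above all 10 C PMN libraries, against 28.4% of genes tested. The smallest adjusted p-values again belonged to ENSCAFG00000006702, at 49.3, 51.4, 51.5, 108.6 and 180.8 CPM in M-MDSC, with a log2 fold change of 4.62 (SE 0.48, edgeR adjusted p = 2.73e-06), and ENSCAFG00000013366, at 113.2, 126.1, 145.2, 147.5 and 202 CPM, with 3.88 (SE 0.41, edgeR adjusted p = 2.87e-06). The log2 fold change of ENSCAFG00000013933 was 4.85 (SE 0.52, edgeR adjusted p = 3.11e-06).

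Of the 5 genes with a PMN-MDSC median over H Mono, ENSCAFG00000028980 was called higher in M-MDSC than in C PMN, at a log2 fold change of 2.33 (SE 0.49, edgeR adjusted p = 0.000999), and the other 4 were not. ENSCAFG00000004722 was the one gene with a negative fitted value, -0.28 (SE 0.89, edgeR adjusted p = 0.811), which turned to 1.66 when libraries were scaled by their size alone. That scaling moved the median of all genes tested to 0.97 and the share of calls higher in M-MDSC from 54.2% to 85.0%. Within series GAR4079 30 of the 34 were called; within PAT4694, with 2 M-MDSC libraries and 4 C PMN libraries that include the shallow one, 3 were called, although the median of the 34 was 3.205 there.

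Between M-MDSC and C Mono, 2 of the 34 genes were called. One gene was called higher in M-MDSC, against 0.505% of the 11874 genes tested, and 1 lower, against 0.253%. The median log2 fold change was -0.24 over the 34, 0.00 over all genes tested and -0.38 over the 546 other monocyte-restricted genes, of which 9 were called lower and none higher. The neutrophil-restricted list stood at 2.82% to 5.92% of H PMN in M-MDSC and at 0.678% to 2.33% in C Mono; its part in these differences was not tested. At an unadjusted p under 0.05 in edgeR, 3 of the 34 were higher and 8 lower. No share over all genes stands beside these counts, so nothing is read from them.

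ENSCAFG00000028980, the gene with the highest ratio in PMN-MDSC, was the one higher in M-MDSC. Its M-MDSC libraries had 84.3, 18.05, 85.4, 86.6 and 82.8 CPM in the order of replicates 1 to 5, and its C Mono libraries 13.3 to 35.7 CPM with a median of 27.3. Replicate 2 fell within C Mono and the other 4 lay above all 8 C Mono libraries. The log2 fold change was 1.55 (SE 0.34, edgeR adjusted p = 0.0473). The call was lost in 17 of 24 other settings, among them either library series alone and every fit that left out 1 library other than M-MDSC replicate 2; the log2 fold change stayed between 1.44 and 1.81.

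ENSCAFG00000010318 was the one lower in M-MDSC, at 42.7, 44.0, 49.97, 53.5 and 71.8 CPM against 74.0 to 114.5 CPM with a median of 96.8 in C Mono. The 2 sample types did not overlap, and the log2 fold change was -0.83 (SE 0.15, edgeR adjusted p = 0.0253). The call was lost in 6 of 24 other settings, among them the fits without M-MDSC replicate 4 (-0.78, edgeR adjusted p = 0.0788) and without M-MDSC replicate 5 (-0.81, edgeR adjusted p = 0.0750); the log2 fold change stayed between -1.04 and -0.69. Groups without overlap were found for 2 of the 34 genes, against 1.63% of the genes tested in either direction. The other was ENSCAFG00000014205, which was named for this reason after its values were seen and did not pass the test, with a log2 fold change of -0.55 (SE 0.20, edgeR adjusted p = 0.206).

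Of the 5 genes with a PMN-MDSC median over H Mono, 3 had positive values and 2 negative ones, down to -0.55. The negative ones, ENSCAFG00000029191 and ENSCAFG00000004722, had M-MDSC means of 0.68 and 0.76 times the C Mono mean. Besides ENSCAFG00000028980, a pair of these genes had positive values, which did not pass the test. ENSCAFG00000002807 had 14.5, 102.6, 189, 200.4 and 298 CPM in M-MDSC against 4.02 to 86.0 CPM in C Mono, a log2 fold change of 2.19 (SE 0.71, edgeR adjusted p = 0.169). ENSCAFG00000004342 had 5.00, 15.0, 15.8, 16.2 and 19.0 CPM against 3.14 to 10.6 CPM, a log2 fold change of 1.0 (SE 0.32, edgeR adjusted p = 0.171). In both, 4 of the 5 M-MDSC libraries lay above all C Mono libraries, and the low library was replicate 2 for the former and replicate 3 for the latter. The 29 genes with a PMN-MDSC median up to H Mono had log2 fold changes of -0.87 to 0.82, of which 23 were negative. That lean was not particular to them: the monocyte-restricted genes that were not chosen had a lower median than the 34, as given above. No share of negative values over all genes stands beside the count. Neither library series alone called any of the 34 between M-MDSC and C Mono. The interaction with series was called for 17 of 13120 genes (0.13%) and for none of the 34. In edgeR 4 of the 34 were at an unadjusted p under 0.05, a count without a share over all genes beside it.

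**Figure D5:**
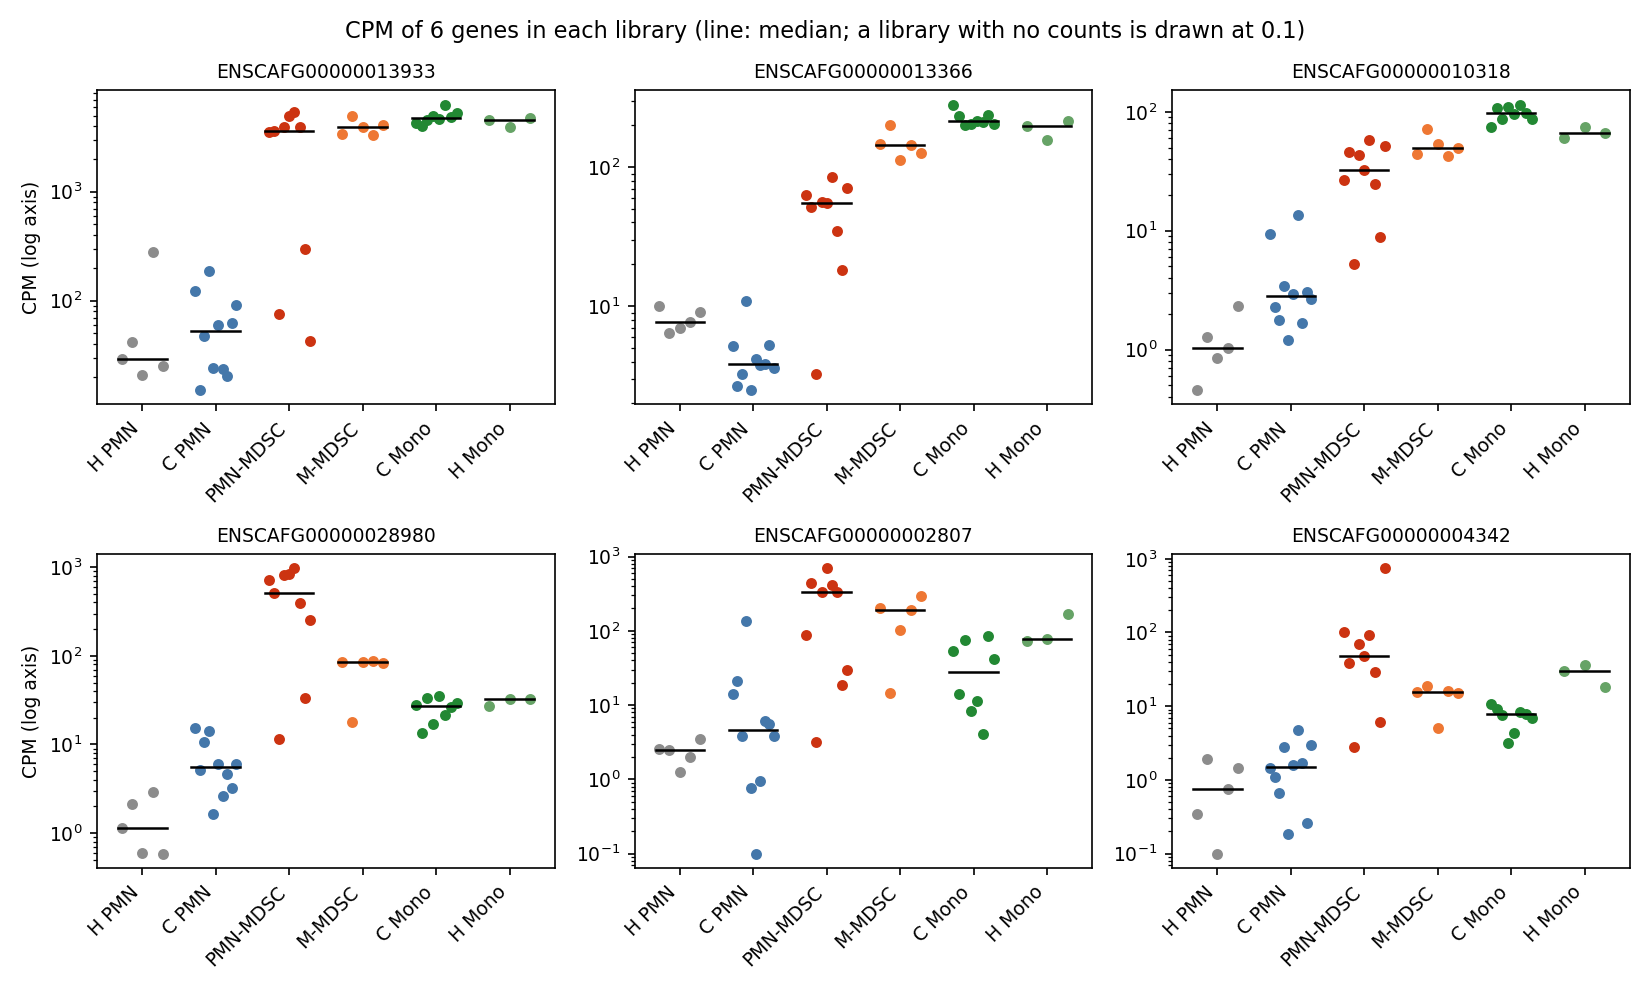
CPM of 6 genes in each library (points) on log axes, by sample type, with lines at the medians. ENSCAFG00000013933, ENSCAFG00000013366 and ENSCAFG00000010318 (top) have their highest medians in C Mono, and ENSCAFG00000028980, ENSCAFG00000002807 and ENSCAFG00000004342 (bottom) have theirs in PMN-MDSC, at 507, 331 and 48.0 CPM.

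The fit of PMN-MDSC against C PMN describes the set and is no test of it, since the genes were chosen for a high median in PMN-MDSC. In this fit 26 of the 34 were called higher, beside 8.47% of the 10278 genes tested, and none lower, beside 1.57%. The median log2 fold change was 3.38, against -0.02 over all genes tested and 1.23 over the 436 other monocyte-restricted genes tested, of which 94 were called higher and 1 lower. The largest fitted values were 7.44 for ENSCAFG00000004342, which fell to 4.004 without the shallow PMN-MDSC replicate 9, and 6.11 for ENSCAFG00000028980. ENSCAFG00000012195, with 4.06 to 248 CPM and a median of 105.3 in PMN-MDSC against 0.946 to 15.8 CPM with a median of 2.99 in C PMN, had 4.44. Within series GAR4079 28 were called. Within PAT4694, where 2 of the 4 PMN-MDSC libraries were low in the set, none was called. There 16 of the 34 were at an unadjusted p under 0.05 in edgeR. This count has no share over all genes beside it, and nothing is read from it.

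Within PMN-MDSC, the 5 libraries of series GAR4079 and the 4 of PAT4694 were compared as a description. The 34 genes were chosen by the median of these same libraries, so the fit cannot test whether the set followed the series. None of the 10972 genes tested was called (0%), with 907 genes at an unadjusted p under 0.05 in edgeR, and DESeq2 called 5 genes higher and 170 lower, none of them in the set. The median log2 difference of the 34, GAR4079 minus PAT4694, was 0.08, with 18 positive and 16 negative values and 1 gene in each direction at an unadjusted p under 0.05. Low libraries were present in both series, replicate 3 in GAR4079 and replicates 8 and 9 in PAT4694. The largest difference was -4.78 for ENSCAFG00000004342 (SE 1.68, edgeR adjusted p = 0.439), the gene whose highest value was in replicate 9.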

How the data were processed

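Cells sorted from canine blood were profiled by Smart-seq2 and Nextera XT libraries sequenced as 75 bp paired reads. Per the study's methods, the authors used skewer for trimming and HISAT2 for alignment to CanFam3.1, the dog genome, extended by spike-in sequences, then marked duplicates with Picard 1.92 and counted uniquely mapped reads over Ensembl exons with featureCounts (Subread 1.5.0), versions as in the submitters' processing notes; whether duplicates were removed and whether strand was used is not given in the sources used here, so overlapping genes and near-identical copies are uncertain. They deposited raw counts per gene, CPM (counts over 1000000 assigned reads) and TPM (per transcript length) for 40 libraries. The deposited CPM chose and described the genes, TPM compared levels between genes, and counts were tested. Spike-ins took at most 0.000275% of counts and were left out.

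Sample types came from the labels. The smallest chi-square per degree of freedom between libraries of a type was 96.7, so no libraries agreed within sampling noise. Counts were fitted with edgeR 4.0.16 in R 4.3.3 (filterByExpr, TMM, quasi-likelihood test, FDR of 0.05). DESeq2 1.42.0 and limma 3.58.1 (voom) were alternatives. The edgeR fit was tried on simulated counts drawn from library sizes without TMM factors, so that trial does not cover the effect of scaling. Replicate numbers follow the order of the libraries and pair nothing. Depth ran from 4229857 to 60473238 counts, so values of low genes are least precise in the 2 shallow libraries.

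The genes and lists were chosen with earlier results of these data known. With no symbol matched (0 of 24580 identifiers), at most 2 genes in each direction of a comparison were named, by the smallest FDR, and others were named after their values were seen, where stated. Lists of cell type markers and pathways, and sequences, were not analysed here.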

Additional observations from a re-analysis of the deposited data

Results flagged for a closer look

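Dixon's test at the 95% level was applied in each sample type with 5 to 10 libraries. The values were the median of the 34 genes and the CPM of 14 named genes, 75 groups in all, and 12 single libraries were marked. Chance marks about 1 group in 20 only for independent, normally spread values. CPM values were tested without a log and the genes share libraries, so the 12 are not read as an excess. The median over the 34 genes marked no library in any sample type, PMN-MDSC included, since 3 of its 9 libraries were low together.

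In H PMN, ENSCAFG00000013933 was at 281.6 CPM in replicate 4 against 41.4 in the next library, and ENSCAFG00000013720 at 1.61 CPM in replicate 5 against 0.215. In C PMN, replicate 4 was highest in ENSCAFG00000002807 (134.8 against 21.3 CPM) and ENSCAFG00000013366 (10.8 against 5.22 CPM), replicate 10 in ENSCAFG00000006702 (4.45 against 2.45 CPM) and ENSCAFG00000009963 (11.1 against 4.38 CPM), and the shallow replicate 7 in ENSCAFG00000029191 (7.33 against 3.61 CPM). In PMN-MDSC, the shallow replicate 9 had 743 CPM of ENSCAFG00000004342 against 101.2 in the next library, and replicate 6 had 46.2 CPM of ENSCAFG00000009963 against 23.0. In M-MDSC, ENSCAFG00000028980 was at 18.05 CPM in replicate 2 with the other 4 libraries from 82.8 CPM, and ENSCAFG00000004342 was at 5.00 CPM in replicate 3 with the others from 15.0 CPM. In C Mono, ENSCAFG00000013366 was at 280.9 CPM in replicate 1 against 237 in the next library.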

How the results depend on the processing

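The make-up of the set depended on its rule. The rule found 53 genes with the mean in place of the median of PMN-MDSC (28 shared with the 34), 13 at a ratio of 0.5 to H Mono and 105 at a ratio lower than the 0.25 used, and 91 and 11 at 10 and 50 times H PMN; it found 27 from TPM (18 shared) and 32 from TMM-scaled CPM (15 shared), and 25 to 41 when 1 library was left out. Without the 2 shallow libraries, a setting added after the data were seen, it found 41, 33 of them shared. The PMN-MDSC libraries of GAR4079 alone gave 51 (34 shared), those of PAT4694 alone 26 (18 shared).

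With at least 10 counts required in every library 9 of the 34 could be tested, and 8, 8 and 7 were called in C Mono and M-MDSC against C PMN and in PMN-MDSC against C PMN. Series PAT4694 alone called 3 in M-MDSC and 0 in PMN-MDSC against C PMN. All other alternatives stayed within 1.5 times the counts of these comparisons; leaving out 1 library gave 29 to 32, 25 to 31 and 22 to 30. Between M-MDSC and C Mono, 2 were called in the fit reported, 0 at an FDR of 0.01, in the fit of all 40 libraries and in either series alone, 1 with no filter on low counts, 4 with DESeq2's Wald test, and 0 to 3 when 1 library was left out. No alternative called any of the 34 between library series or for a series interaction.

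By TMM-scaled CPM the median level was 5.54% in C PMN in place of 2.92% and 70.05% in PMN-MDSC in place of 43.8%. In M-MDSC it was 79.3% in place of 75.8%. The move in PMN-MDSC was just under 1 SD of its libraries (26.4), an SD widened by the low libraries, so it is not small. With the mean over the 34 genes in place of the median, the level was 6.02% in C PMN, 131.4% in PMN-MDSC and 88.9% in M-MDSC. ENSCAFG00000028980, with a PMN-MDSC median of 16.5 times its H Mono level, raises the mean in PMN-MDSC. Only 5 of the 34 genes had a PMN-MDSC median over H Mono.

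In C Mono against C PMN, uncalled log2 fold changes turned negative for ENSCAFG00000002807 (-0.38 in GAR4079 alone, and -0.026, -0.045, -0.054, -0.023, -0.10, -0.0064, -0.018 and -0.17 without C PMN replicate 3, 5 or 6, C Mono replicate 1 or 3, C PMN replicate 8 or 10, or C Mono replicate 7), ENSCAFG00000004722 (-0.33 with DESeq2's size factors, -0.75 in PAT4694 alone, and -0.095, -0.10, -0.071, -0.036, -0.080 and -0.017 without C PMN replicate 3, 4, 5, 6, 8 or 10) and ENSCAFG00000004342 (-0.10 with DESeq2's Wald test, -0.83 in PAT4694 alone). In M-MDSC against C PMN, ENSCAFG00000004722 turned positive: 1.66 by library size alone, 0.67 with at least 10 counts in every library, 0.96 with DESeq2's Wald test, 1.55 with voom, 0.048 with series as a term, 0.70 in GAR4079 alone and 0.94 without the shallow library. The causes were not tested. No paired analysis was possible because the replicate numbers follow the order of the libraries and no label ties libraries to dogs.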
